A study of Mus musculus with 24 samples.

Results

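Collagen genes and the genes for the enzymes and chaperones that modify collagen were followed in mouse gastrocnemius muscle, a calf muscle of mainly fast fibres. The members were taken by symbol: every gene named Col, a number, a and a number, together with the prolyl hydroxylases P4ha1, P4ha2 and P4ha3, the lysyl hydroxylases Plod1, Plod2 and Plod3, the cross-linking enzymes Lox, Loxl1 and Loxl2, the chaperone Serpinh1 and the procollagen processing genes Pcolce and Bmp1. This gave 52 genes, on 114 probes, of the 19057 genes named on the array. Of these 52, 41 were collagens and 11 were among the 12 modifying genes of the rule, and Loxl2 was not analysed here. A gene was tested where 1 of its probes was detected, at a detection p under 0.01, on at least 5 arrays, and 30 members were: 21 collagens and 9 modifying genes.

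The study compared the gastrocnemius of male B6D2F1 mice, a hybrid of the C57BL/6 and DBA/2 strains, from the National Institute on Aging colony, on Illumina bead arrays. Young mice of 8 months fed ad libitum (6 mice on 10 arrays) and old mice of 24 months fed ad libitum (6 mice on 7 arrays) give the comparison with age. Old mice of 24 months under caloric restriction (5 mice on 7 arrays) give the comparison by diet, and they differ from the young mice in both age and diet, which cannot be told apart in that comparison. The sources used here do not state the degree or start of the restriction. No label says outright that each name is a separate animal, so p-values refer to the spread among these named samples.

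Collagens are trimers of chains wound into a triple helix. Inside the cell, prolyl hydroxylases make the hydroxyproline that keeps the helix stable at body temperature, lysyl hydroxylases prepare the sites of later cross-links, and Serpinh1 (HSP47) holds the folded trimer. Outside the cell, Bmp1 removes the C-terminal propeptide of the fibrillar collagens with Pcolce as its enhancer, and Lox and Loxl1 start the cross-links. In muscle, collagens I and III form the fibres of the perimysium and epimysium, collagen IV is the network of the basement membrane around each fibre and capillary, and collagen VI forms beaded microfibrils beside it. Most of the fibrillar collagen is made by fibroblasts, so in a sample of whole muscle fewer cells of a type and less RNA per cell cannot be told apart.

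Values are log2 signals after background correction and quantile normalization, averaged over the arrays of a mouse, and each gene is given by its probe of highest mean. Between 13625 and 15176 of 45281 probes were detected per array, and the groups' ranges overlapped. The median SD between mice of a group was 0.179 over the 8943 genes tested, and the number of mice limits the precision. The fast-fibre genes Acta1, Ckm, Myh4, Mylpf and Pvalb were detected on all 24 arrays, in keeping with the labelled tissue. Each of the 4 chips carried 6 arrays with all 3 groups, so differences are also given within chips. The chips share mice (young mouse 6 was on all 4, and the only old ad libitum array of chip 3 was old mouse 6), so within-chip values are not separate replicates.

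Of the 30 tested members, 24 were detected on all 24 arrays. The other 6 lay near the detection limit, which fell at log2 5.73 to 6.10 depending on the array: Col24a1 was detected on 20 arrays, Col11a2 on 16, Col8a2 on 14, Col14a1 and Col5a2 on 7 each, and Col4a4 on 6. A further 5 members, Col11a1, Col19a1, Col23a1, Col27a1 and Col5a3, were detected on 1 or 2 arrays and were not tested. The remaining 17 were detected on no array: Col2a1, Col9a1, Col9a2, Col9a3 and Col10a1, which are cartilage collagens, Col13a1, Col17a1, Col25a1, Col26a1 and Col28a1, the collagen IV chains Col4a3 and Col4a6, the collagen VI chains Col6a4, Col6a5 and Col6a6, and the enzymes P4ha3 and Plod2. A probe that is not detected shows only that its signal was not above the array's negative controls.

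With age, the tested members lay lower as a group, but hardly any single gene passed the test. In old against young mice 27 of 30 had a log2 difference below 0, against 45.8% of all genes tested, and their median difference was -0.40, against 0.02 over all genes. At an adjusted p under 0.05 (limma, Benjamini-Hochberg over all genes tested), 1 member was lower, Col4a4, while 0.716% of all genes were called lower and 2.06% were called in either direction. Its probe met the detection filter through its young arrays and was detected on no old array, so nothing is read from this call. At an unadjusted p under 0.05, 18 of 30 were lower, against 8.36% of all genes. These 18 include Col4a4 and Col8a2, whose probes met the detection filter through their young arrays, so neither is read as a fall. The members were measured in the same mice and cells, so these 30 are not independent counts. Among the 24 members detected on every array, 22 lay below 0 with a median of -0.37 and 0 passed the adjusted threshold. Of all 7463 genes detected on every array, 3482 lay below 0, the median was 0.01 and 0.66% were called lower.

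Old mouse 6 stood apart in this comparison. The mean of the 30 tested members, each centred on its mean over all mice, was 0.27 in old mouse 6 against -0.32 to -0.04 in the other 5 old mice and 0.07 to 0.36 in the 6 young mice. Without this mouse 8 members passed with age in place of 1: Col1a1, Col3a1, Col4a1, Col4a2, Col4a4, Col5a1, Col6a1 and Col15a1. Over all genes 1.8% were called in that fit. The mouse was singled out by the values of these same members, so leaving it out lowers the old group's mean over them by construction. Fits without old mouse 6, here and below, show how far a result rests on 1 mouse and add no weight to a difference. The number of members called ranged from 1 to 8 over the fits that left out 1 mouse each, and that of all 8943 genes from 32 to 262. In the fit with array weights, which are estimated over all genes tested, old mouse 6 had the lowest weight of the 17 mice (0.44). The median difference of the members was below 0 within each of the 4 chips, from -0.52 to -0.02.

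By diet, 3 modifying enzymes were called lower under restriction, in calls that did not hold in every fit, and none of the collagens passed the test. In old restricted against old ad libitum mice P4ha1, P4ha2 and Plod3 passed the test, all lower, which is 3 of 30 members against 2.26% of all genes called lower and 3.18% called in either direction. None of the 3 passed with 2 groups only (limma adjusted p of 0.116 to 0.130) or with restricted mouse 1, 2, 3 or 4 left out. A second Plod3 probe, detected on all 24 arrays, gave -0.01. All 9 tested modifying genes lay below 0, from -0.53 to -0.003. Of the 21 collagens 11 lay below 0 and 10 above, with a median of -0.04, and none passed at the adjusted threshold, while 4 passed at an unadjusted p under 0.05 (2 higher and 2 lower), against 19.8% of all genes. Over all 30 the median was -0.07 against -0.02 for all genes tested, and 20 lay below 0 against 55.3% of all genes. Within chips the members' median was below 0 on 2 of 4.

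Between old restricted and young mice more members passed than in the other comparisons. Here 28 of 30 members lay below 0, the median was -0.44, and 11 members were called lower: Col4a1, Col4a2, Col15a1, Col18a1, Col5a1, Col16a1, Col24a1, P4ha1, P4ha2, Plod3 and Loxl1. Over all genes 51.7% lay below 0, 2.68% were called lower and 4.71% were called in either direction. Of the 24 members detected on every array 10 were called lower, against 2.77% of all genes detected on every array. No member was called higher. In 7 members every restricted mouse lay below every young mouse, against 3.04% of all genes. The 3 comparisons share mice, so their values are set side by side here and not taken as support for one another.

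**Figure D1:**
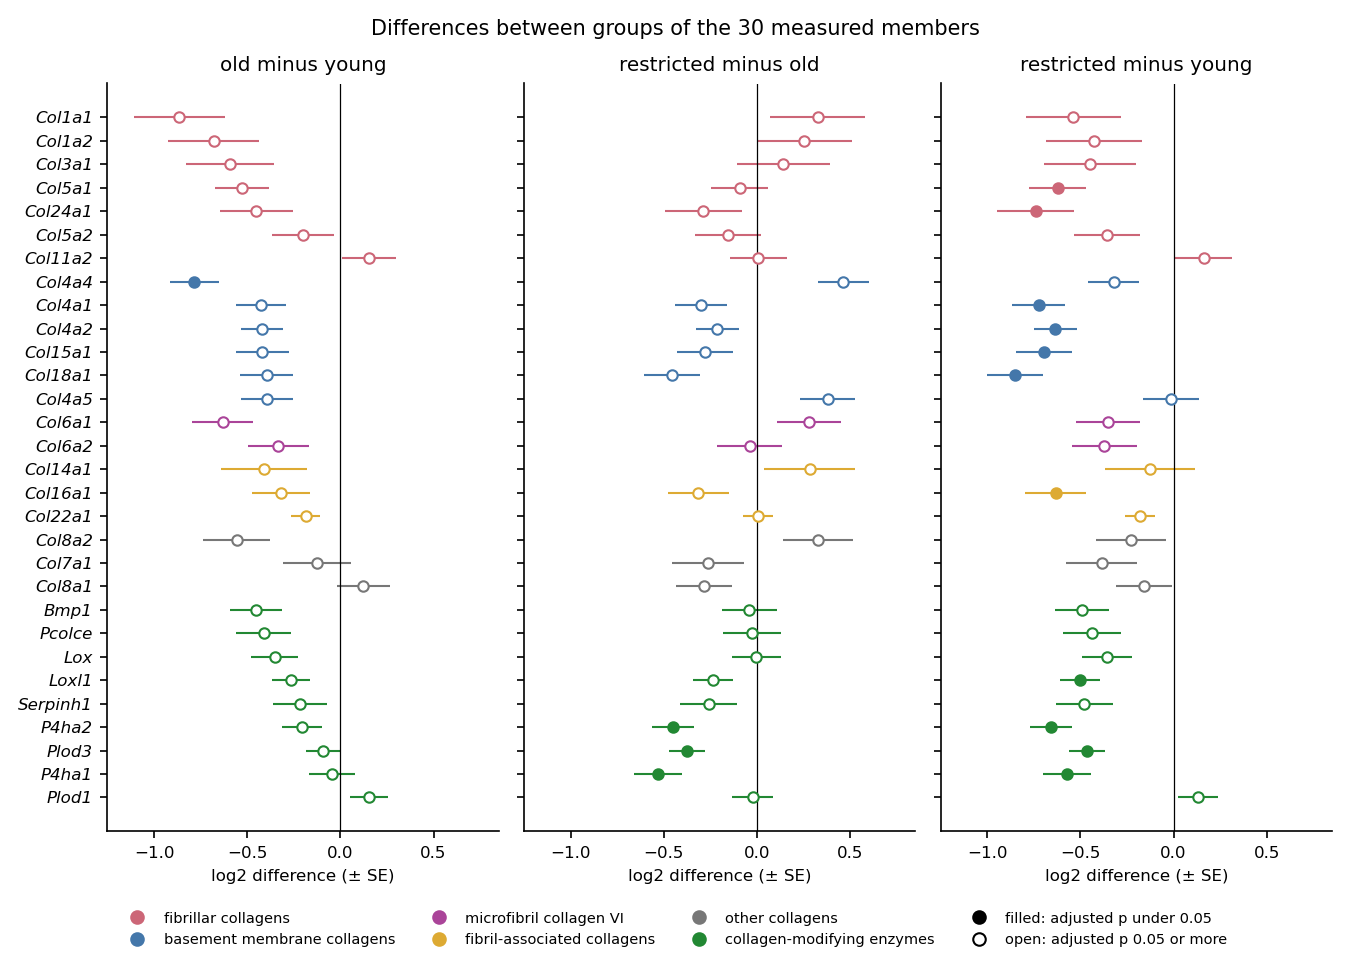
Log2 differences between groups (x axis, with the SE of the limma fit) for the 30 tested members (y axis), coloured by class; filled points have an adjusted p under 0.05. Old minus young has 27 of 30 points left of 0 and 1 filled, restricted minus old has 3 filled points, all enzymes, and restricted minus young has 11 filled points.

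Type I collagen is the main component of the muscle's thick collagen fibres, and its 2 chains had the largest age differences among the fibrillar collagens without passing the test. Col1a1, the alpha 1 chain, had a lowest, median and highest value of 7.99, 8.43 and 8.79 in young mice and of 6.66, 7.48 and 8.19 in old mice, and the 5 restricted mice stood at 8.42, 8.28, 7.82, 7.26 and 7.47. Old mice 3 and 6 reached into the young range, as did restricted mice 1 and 2. The difference was -0.86 ± 0.24 (SE) with age (limma adjusted p = 0.0666), 0.33 ± 0.25 for restricted against old (0.503) and -0.54 ± 0.25 for restricted against young (0.229). With age it was below 0 on all 4 chips, from -1.41 to -0.07, and it passed without old mouse 6 (-0.997, adjusted p = 0.0426) or without old mouse 3 (-0.97, 0.0446).

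Col1a2, the alpha 2 chain of the same trimer, ran from 8.69 to 9.41 in young mice and from 7.96 to 9.34 in old mice, and stood at 9.49, 8.88, 8.12, 8.34 and 8.53 in the restricted mice. The overlap came from old mouse 6, which at 9.34 lay beside the highest young mice, while old mouse 5 at 8.68 lay just under the lowest young mouse and the other 4 old mice were lower. The age difference of -0.68 ± 0.24 missed the threshold (limma adjusted p = 0.138). Col3a1, which mixes with collagen I in thinner fibres, had values of 9.95 to 10.80 in young and 9.09 to 10.70 in old mice, with old mouse 6 highest and the other 5 old mice below every young mouse. Its difference with age was -0.59 ± 0.24 (adjusted p = 0.181), and -0.80 with an adjusted p of 0.0439 without old mouse 6. In both genes restricted mice were on average above the old ones, by 0.25 in Col1a2 (adjusted p = 0.627) and 0.14 in Col3a1 (0.798), within the spread between mice.

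Col5a1, a chain of the minor fibrillar collagen that sits inside collagen I fibrils and limits their width, did pass against young mice. Its values were 9.40, 9.67 and 9.75 (lowest, median and highest) in young mice and 8.58, 9.15 and 9.60 in old mice, and 8.98, 9.13, 8.69, 8.85 and 9.37 in the restricted mice. Every restricted mouse lay below every young mouse, and old mouse 6 was the only old mouse inside the young range. Restricted mice were 1.54-fold lower than young (-0.62 ± 0.15, limma adjusted p = 0.0292), old mice differed from young by -0.53 ± 0.14 (0.0608), and restricted from old by -0.09 ± 0.15 (0.784). The call against young held on all 4 chips in direction, from -0.62 to -0.35, and was lost in 7 of 17 fits that left out 1 mouse (young mice 1, 2, 3 and 4 and restricted mice 1, 3 and 4; adjusted p up to 0.0848).

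Col24a1, a fibrillar collagen described in bone and cornea of the mouse, was dim here. It ran from 6.34 to 7.14 in young and from 5.75 to 6.84 in old mice, and from 5.82 to 6.68 in restricted mice, in which it was detected on 4 of 7 arrays. Restricted mouse 1 lay inside the young range and the other 4 below it. The difference between restricted and young mice was -0.74 ± 0.21 (limma adjusted p = 0.0461), and it lost the threshold in 9 of 17 fits without 1 mouse (young mice 2, 3, 4 and 5, old mouse 3 and restricted mice 2, 3, 4 and 5; adjusted p up to 0.125). A second probe of the gene gave -0.74 but was detected on 8 of 10 young, 3 of 7 old and 0 of 7 restricted arrays. Its restricted values lay below the detection limit, so it adds no weight to this difference. Col5a2 and Col11a2 lay at the detection limit and no comparison passed: Col5a2 was detected on 4 of 10 young, 3 of 7 old and 0 of 7 restricted arrays, and its measured mean in young mice was 6.01 ± 0.32 (SD, n = 6).

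**Figure D2:**
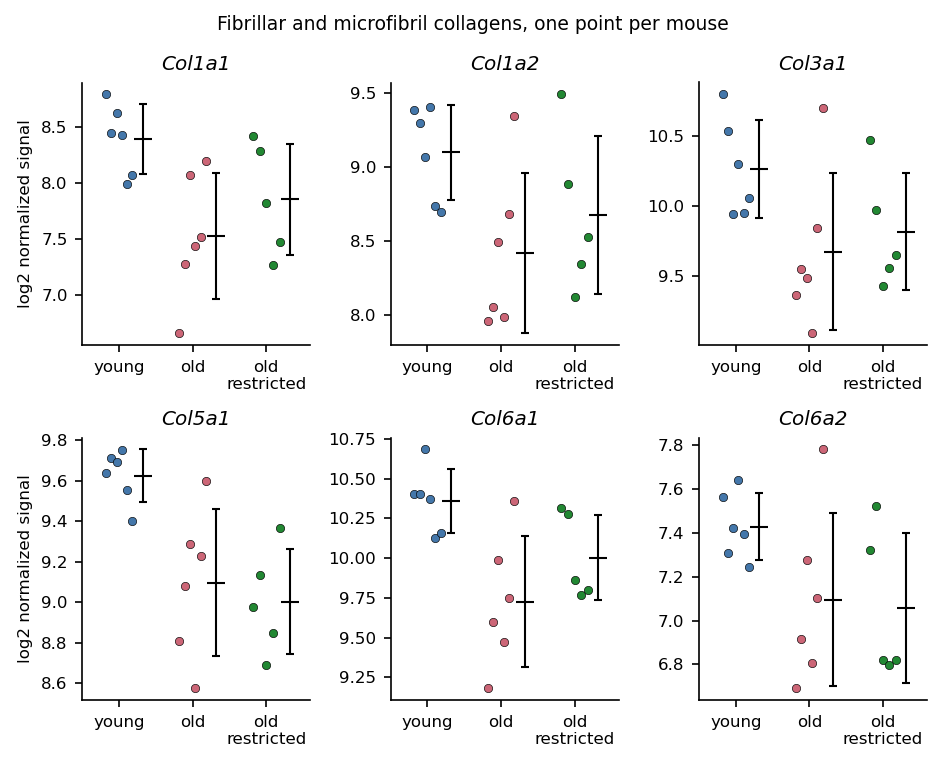
Log2 normalized signal (y axis, its own scale in each panel) of 6 collagens of fibrils and microfibrils in each mouse, with the group mean and SD beside the points. In Col3a1 the old group runs from 9.09 to 10.70 with old mouse 6 at the top, while in Col5a1 the highest restricted mouse (9.37) is under the lowest young mouse (9.40).

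Collagen VI links the basement membrane to the fibrillar matrix, and loss of its chains is known to cause muscular dystrophy in humans. Col6a1 had values of 10.13, 10.39 and 10.68 in young mice, 9.18, 9.68 and 10.36 in old mice, and 10.31, 10.28, 9.86, 9.77 and 9.80 in the restricted mice. Old mouse 6 and restricted mice 1 and 2 lay inside the young range and all the other old and restricted mice below it. The age difference was -0.63 ± 0.16, just short of the threshold (limma adjusted p = 0.0521). It passed without old mouse 6 (-0.76, adjusted p = 0.0169), without old mouse 3 (-0.68, 0.0431) and without restricted mouse 2, which changes only the shared spread (-0.63, 0.0493). A second Col6a1 probe gave -0.56 with age, and with every probe fitted as a row of its own both passed (adjusted p = 0.0269 for the second and 0.0441 for the first). Restricted mice differed from old by 0.28 ± 0.17 (0.385).

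Col6a2, whose chain pairs with that of Col6a1 in the collagen VI trimer, had a smaller difference with age: 7.24 to 7.64 in young, 6.69 to 7.78 in old and 6.80 to 7.52 in restricted mice. The old group spanned the whole young range, again with old mouse 6 highest. Its difference was -0.33 ± 0.17 with age (limma adjusted p = 0.280) and -0.37 ± 0.17 for restricted against young (0.224).

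Among the collagens that attach to fibril surfaces, Col16a1 passed against young mice. It had values of 7.97, 8.21 and 8.54 in young mice, 7.43, 7.83 and 8.54 in old mice, and 7.75, 7.91, 7.21, 7.51 and 7.60 in the restricted mice. All restricted mice lay below all young mice, with little room between 7.91 and 7.97. The difference was -0.63 ± 0.16 (1.55-fold, limma adjusted p = 0.0345), and it was lost in 8 of 17 fits without 1 mouse (young mice 1 to 5 and restricted mice 1, 3 and 4; adjusted p up to 0.103). Restricted mice differed from old by -0.32 ± 0.16 (0.295).

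Col22a1, a collagen of the junction between muscle and tendon, was the member that varied least between mice, with a pooled SD of 0.12 within groups. Young mice lay at 9.52 to 9.72, old mice at 9.22 to 9.55 and restricted mice at 9.22 to 9.64. The difference was -0.19 ± 0.08 with age (limma adjusted p = 0.195), 0.01 ± 0.08 by diet (0.986) and -0.18 ± 0.08 for restricted against young (0.201). Col14a1, a collagen of mature fibril surfaces, was detected on 7 arrays and its difference with age of -0.41 ± 0.23 did not pass (0.346).

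The short-chain collagen VIII of vessel walls was measured by 2 genes, and neither passed in any comparison. Their signs differed with age and by diet, and both lay below 0 in restricted against young mice. With Col8a2 near the detection limit, nothing is read from these signs. Col8a2 was detected on 10 of 10 young arrays but on 2 of 7 old and 2 of 7 restricted arrays. Its measured values were 6.05 to 6.46 in young, 5.16 to 6.45 in old and 5.78 to 6.43 in restricted mice, with old mouse 3 and restricted mouse 1 in the young range. Its probe met the detection filter through its young arrays, most old values lay below the detection limit, and the age difference did not pass (limma adjusted p = 0.0977). Col8a1 was 0.12 ± 0.14 higher on average in old than in young mice (0.675) and differed by -0.28 ± 0.15 between restricted and old mice (0.309). Col7a1, the anchoring fibril collagen, did not pass in any comparison, the largest difference being -0.39 ± 0.19 for restricted against young (0.251).

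Of the 6 tested basement membrane collagens, 4 fell between young and restricted mice. With age the 5 tested genes of this class detected on every array lay below 0, from -0.43 to -0.39, and Col4a1, Col4a2, Col15a1 and Col18a1 passed in restricted against young mice. Between restricted and old mice these 4 lay below 0 and the other 2, Col4a4 and Col4a5, above 0. None of the 6 passed (2 higher and 2 lower at an unadjusted p under 0.05, against 19.8% of all genes in either direction).

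Col4a1 and Col4a2 lie head to head in the genome and encode the chains of the common collagen IV trimer. Col4a1 had values of 11.25, 11.46 and 11.81 in young mice, 10.64, 10.94 and 11.60 in old mice, and 10.81, 10.89, 10.72, 10.80 and 10.48 in the restricted mice. The restricted mice all lay below the young mice and inside or below the range of the old mice. Restricted mice were 1.65-fold lower than young (-0.73 ± 0.14, limma adjusted p = 0.00967), with -0.43 ± 0.13 for old against young (0.0951) and -0.30 ± 0.14 for restricted against old (0.246). Within chips the difference from young was -0.86 to -0.48.

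Col4a2 had values close to that pattern: 10.34, 10.39 and 10.72 in young mice, 9.60, 10.06 and 10.41 in old mice, and 9.85, 9.90, 9.84, 9.68 and 9.81 in the restricted mice. The 5 restricted mice fell within a narrow band below every young mouse, and among old mice only mouse 6 lay in the young range. The difference was -0.63 ± 0.12 for restricted against young (1.55-fold, limma adjusted p = 0.00711), -0.42 ± 0.11 with age (0.0544) and -0.21 ± 0.12 by diet (0.325). The age difference passed without old mouse 6 (-0.50, adjusted p = 0.0251) or without old mouse 4 (-0.47, 0.0481). The calls of Col4a1 and Col4a2 against young mice held in every fit that left out 1 mouse (17 of 17) and under each of 13 other settings.

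Col18a1, a heparan sulfate proteoglycan collagen whose C-terminal fragment is endostatin, had the largest difference between restricted and young mice of any tested member. Its values were 9.09, 9.48 and 9.73 in young mice, 8.70, 9.08 and 9.39 in old mice, and 8.28, 8.78, 8.43, 8.60 and 9.11 in the restricted mice. Restricted mouse 5 lay level with the lowest young mouse and the other 4 below it. Restricted mice were 1.80-fold lower than young (-0.85 ± 0.15, limma adjusted p = 0.00570), with -0.40 ± 0.14 for old against young (0.138) and -0.46 ± 0.15 for restricted against old (0.0980). By diet the difference was below 0 on all 4 chips, from -0.47 to -0.39, and it passed without restricted mouse 5 (-0.57, adjusted p = 0.0272). The call against young mice held in 17 of 17 fits without 1 mouse and under 13 of 13 other settings.

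Col15a1, the related collagen of capillary and fibre basement membranes, had values of 8.17, 8.43 and 8.59 in young mice, 7.62, 7.92 and 8.71 in old mice, and 7.73, 7.93, 7.58, 7.53 and 7.85 in the restricted mice. No restricted mouse reached the young range, whereas old mouse 6 exceeded it. The difference from young was -0.70 ± 0.15 in restricted mice (1.62-fold, limma adjusted p = 0.0160) and -0.42 ± 0.14 in old mice (0.116). The former was lost in 1 of 17 fits, without restricted mouse 3 (adjusted p = 0.0543), and the latter passed without old mouse 6 (-0.56, adjusted p = 0.0165).

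Col4a4 and Col4a5 encode chains of the collagen IV network best known from kidney glomeruli. Col4a4 was detected on 5 of 10 young, 0 of 7 old and 1 of 7 restricted arrays, and every old mouse (4.83 to 5.51) lay below every young mouse (5.75 to 6.23), while restricted mice ran from 5.31 to 6.01, overlapping both other groups. No old array detected the probe, which met the detection filter through its young arrays. No minimum difference is therefore given, and nothing is read from the call (limma adjusted p = 0.00632 on the measured values). The sizes of the differences of old mice from young and from restricted mice were not detectable at this signal. Col4a5, detected on all arrays, was 6.75, 6.98 and 7.09 in young mice, 6.23, 6.46 and 7.01 in old mice, and 7.42, 6.84, 6.67, 7.04 and 6.75 in the restricted mice. Old mice 1 to 4 lay below all young and restricted mice, and old mice 5 and 6 among them. Neither its age difference (-0.39 ± 0.14, adjusted p = 0.136) nor its diet difference (0.38 ± 0.15, 0.157) passed, and restricted and young mice differed by -0.01 ± 0.15 (0.969).

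**Figure D3:**
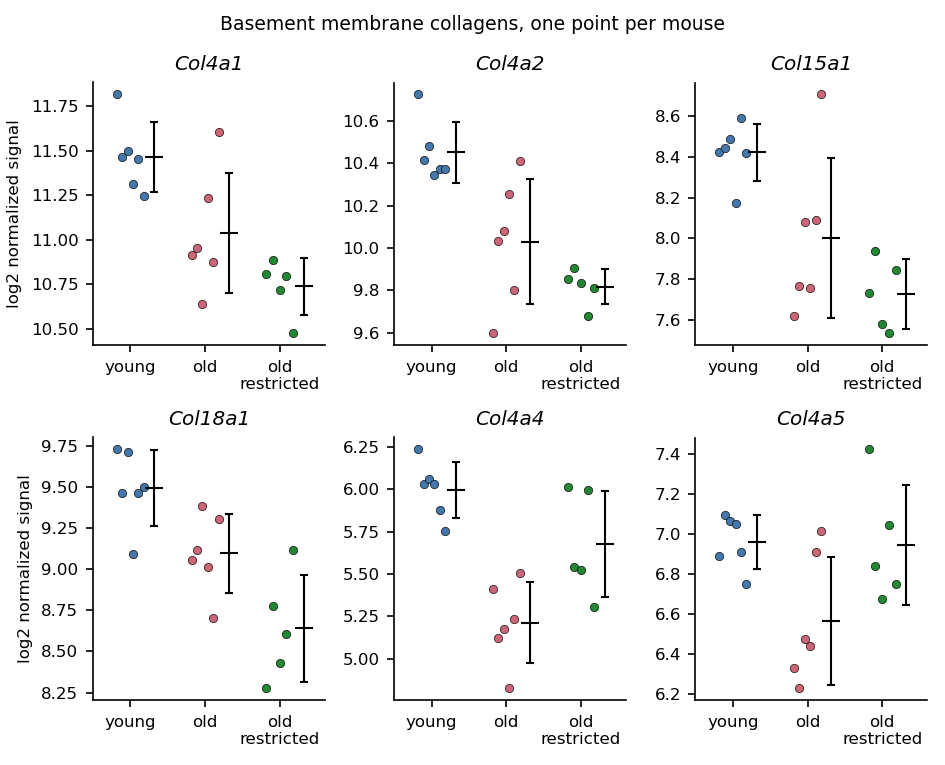
Log2 normalized signal (y axis, its own scale in each panel) of 6 basement membrane collagens in each mouse, with group mean and SD. For Col4a1, Col4a2 and Col15a1 all restricted mice lie below all young mice, and for Col4a4, near the detection limit, all old mice (4.83 to 5.51) lie below all young mice (5.75 to 6.23).

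The prolyl hydroxylase subunits had the smallest adjusted p-values of the members by diet. P4ha1 and P4ha2 encode the catalytic alpha subunits of collagen prolyl 4-hydroxylase and are known targets of hypoxia-inducible factor in mouse and human cells. Because both fell by diet, the bases just before their RefSeq starts (build GRCm38.p6, plus strand, written 5′ to 3′) were searched for the factor's core letters ACGTG and GCGTG on both strands. The stretches shown end at the base before the earliest RefSeq start of each gene, at chr10:59323046-59323196 for P4ha1 and chr11:54100674-54100923 for P4ha2, and capitals mark the core letters or their reverse complements, CACGT and CACGC.
P4ha1: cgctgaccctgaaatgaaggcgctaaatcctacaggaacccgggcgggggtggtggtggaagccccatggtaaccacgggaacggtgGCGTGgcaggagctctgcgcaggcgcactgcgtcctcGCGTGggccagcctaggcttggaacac
P4ha2: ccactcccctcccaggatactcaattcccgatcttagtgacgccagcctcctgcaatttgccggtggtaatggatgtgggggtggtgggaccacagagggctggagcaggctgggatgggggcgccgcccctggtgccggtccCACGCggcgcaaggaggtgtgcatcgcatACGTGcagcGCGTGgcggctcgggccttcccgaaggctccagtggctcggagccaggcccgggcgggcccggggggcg
P4ha2 holds ACGTG 78 bases before its start, and GCGTG cores 69 and 107 bases before it. P4ha1 holds GCGTG 163 and 126 bases before the start used in the RefSeq promoter table, and ACGTG on the opposite strand 16 bases before it, in bases not shown since another RefSeq transcript begins upstream of them. In Plod3, whose upstream bases lie inside the span of the neighbouring gene Znhit1 and are not shown, ACGTG stands 54 bases before the start. Such letters are common: 19.625% of the 32851 RefSeq promoters of 300 bases hold ACGTG and 43.773% hold ACGTG or GCGTG, and among the 23 tested members with a listed promoter 8 hold ACGTG. A match of letters is a description of the sequence and no evidence of binding.

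P4ha1 had values of 7.85, 8.09 and 8.21 in young mice, 7.68, 7.97 and 8.44 in old mice, and 7.57, 7.15, 7.35, 7.64 and 7.74 in the restricted mice. Every restricted mouse lay below every young mouse, and against the old mice only the lowest old mouse (7.68) reached the restricted range. P4ha1 fell by 0.53 on the log2 scale under restriction (1.44-fold lower, SE 0.13, limma adjusted p = 0.0330) and was 1.49-fold lower than in young mice (-0.57 ± 0.13, 0.0216), while old and young mice differed by -0.04 ± 0.12 (0.878). The diet difference was below 0 within each chip, from -0.85 to -0.15. It lost the threshold in 7 of 17 fits without 1 mouse (old mice 4, 5 and 6 and restricted mice 1, 2, 3 and 4; adjusted p up to 0.0926), and the call against young mice in 4 of 17 (young mice 1 and 2 and restricted mice 2 and 3; up to 0.0620).

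P4ha2 had values of 9.42, 9.72 and 9.85 in young mice, 9.21, 9.48 and 9.75 in old mice, and 8.97, 8.90, 8.91, 9.09 and 9.37 in the restricted mice. Restricted mice 1 to 4 lay below every young and every old mouse, and restricted mouse 5 below every young mouse only. It fell by 0.45 under restriction (1.37-fold lower, SE 0.11, limma adjusted p = 0.0375) and was 1.58-fold lower than in young mice (-0.66 ± 0.11, 0.00558). The call against young mice held in 17 of 17 fits without 1 mouse and under 13 of 13 other settings, whereas the call by diet was lost in 9 of 17 (young mouse 3, old mice 1, 2, 5 and 6 and restricted mice 1 to 4; up to 0.103). Within chips the diet difference was -0.63 to -0.15.

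Plod3, a lysyl hydroxylase that also adds glucose to collagen hydroxylysine, fell by 0.37 under restriction (1.30-fold lower, SE 0.10, limma adjusted p = 0.0402). Young mice had values of 9.83 to 10.09 and old mice of 9.80 to 9.99, and the restricted mice stood at 9.50, 9.50, 9.27, 9.39 and 9.94. The first 4 restricted mice lay well below all the others, and restricted mouse 5 lay among them. Restricted mice were also 1.38-fold lower than young (-0.47 ± 0.10, adjusted p = 0.0136). The second Plod3 probe, detected on all 24 arrays, gave a diet difference of -0.01 and a difference from young mice of -0.04, so the probes of this gene disagree, and the mean of the probes did not pass by diet (-0.19, adjusted p = 0.265) or against young mice (adjusted p = 0.125). The call by diet was also lost in 11 of 17 fits without 1 mouse (young mice 2, 3 and 4, old mice 2, 4, 5 and 6 and restricted mice 1 to 4; adjusted p up to 0.113). The second probes of P4ha1 and P4ha2, by contrast, gave -0.36 and -0.41 by diet. Plod1, the lysyl hydroxylase of helical cross-link sites, lay above 0 with age (0.15 ± 0.10, 0.438) and near 0 by diet (-0.02 ± 0.11, 0.939).

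Serpinh1, the collagen chaperone, had values of 10.94 to 11.51 in young mice, 10.80 to 11.23 in old mice and 10.10 to 11.11 in restricted mice, overlapping throughout. Its difference was -0.22 ± 0.15 with age (limma adjusted p = 0.427), -0.26 ± 0.15 by diet (0.356) and -0.48 ± 0.15 against young (0.0787), the last passing without restricted mouse 5 (-0.58, adjusted p = 0.0271). A second Serpinh1 probe gave -0.01, -0.30 and -0.31.

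Loxl1, which starts cross-links on elastin and collagen, fell between young and restricted mice. Its values were 10.27, 10.33 and 10.54 in young mice, 9.93, 10.14 and 10.26 in old mice, and 9.77, 9.97, 9.80, 9.53 and 10.29 in the restricted mice. Every old mouse lay below every young mouse, with almost no gap (10.26 against 10.27), as did no other of the 24 members detected on every array. Over all genes 1.03% were separated in this direction. Restricted mouse 5 lay inside the young range and the other 4 below it. Restricted mice were 1.42-fold lower than young (-0.50 ± 0.11, limma adjusted p = 0.0158), in 17 of 17 fits without 1 mouse and under 13 of 13 other settings. Old mice differed from young by -0.27 ± 0.10 (0.165) and restricted from old by -0.24 ± 0.11 (0.230), the latter passing without restricted mouse 5 (-0.34, adjusted p = 0.0376).

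Lox, the founding lysyl oxidase, had nearly the same mean in both groups of old mice. Young mice ran from 7.93 to 8.62, old mice from 7.55 to 8.25 and restricted mice from 7.76 to 8.17. The difference was -0.35 ± 0.13 with age (limma adjusted p = 0.137) and 0.00 ± 0.13 by diet (0.994).

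Bmp1 and Pcolce, the protease and its enhancer, also lay lower in both old groups without passing. Bmp1 was 8.77 ± 0.21 (SD, n = 6) in young mice, 8.32 ± 0.20 (n = 6) in old mice and 8.28 ± 0.36 (n = 5) in restricted mice. Its difference was -0.45 ± 0.14 with age (limma adjusted p = 0.0893) and -0.49 ± 0.15 for restricted against young (0.0622). The age difference was below 0 on all 4 chips, and 2 further probes gave -0.32 and -0.27. It passed with age without restricted mouse 3 (adjusted p = 0.0451) and against young without restricted mouse 5 (-0.58, 0.0241) or young mouse 6 (-0.55, 0.0383). Pcolce had differences of -0.41 ± 0.15 with age (0.139) and -0.44 ± 0.16 for restricted against young (0.110), the latter passing without restricted mouse 5 (-0.53, 0.04998).

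**Figure D4:**
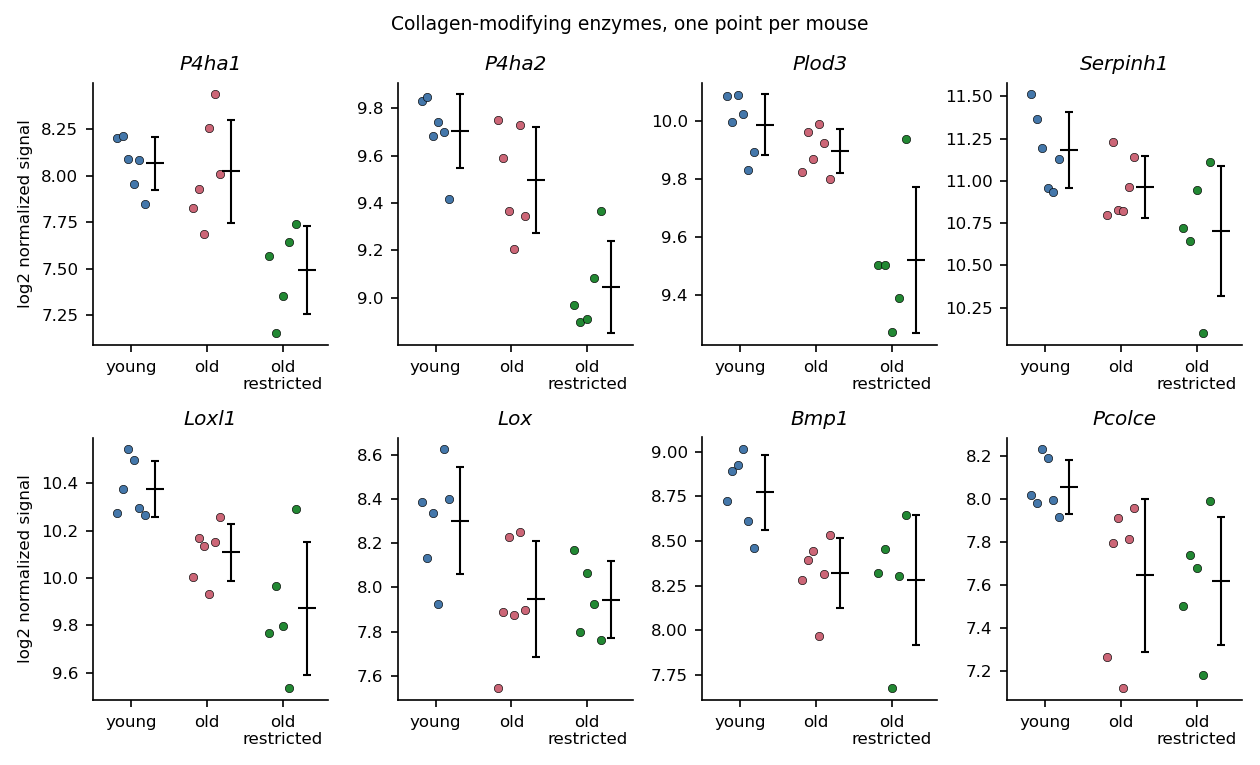
Log2 normalized signal (y axis, its own scale in each panel) of 8 modifying genes in each mouse, with group mean and SD. In P4ha1 (up to 7.74, under the lowest young mouse at 7.85) and P4ha2 all restricted mice lie below all young mice but overlap the old mice. In Plod3 and Loxl1 restricted mouse 5 (9.94 and 10.29) stands apart from the other 4.

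Genes that act on collagen but are no members were read beside them. Of 21 genes for other steps of collagen folding and processing 12 were tested. Mia3, which loads procollagen into export carriers, fell with age by 0.40 (SE 0.10, limma adjusted p = 0.0463). It was the only 1 of the 12 called with age, beside 2.06% of all genes. At an unadjusted p under 0.05, 4 of the 12 were lower with age, against 8.36% of all genes. By diet none passed (1 higher and 0 lower at an unadjusted p under 0.05, against 19.8% of all genes in either direction). In restricted against young mice none passed either (1 higher and 2 lower, against 11.7% of all genes lower). Sparc, an extracellular collagen chaperone, had differences of -0.43 ± 0.14 with age (0.0977) and -0.49 ± 0.14 for restricted against young (0.0587), and the latter passed without old mouse 1 (0.0473).

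Of 18 genes of collagen receptors and turnover 11 were tested, and 1 of the 11 passed in each comparison, beside 2.06%, 3.18% and 4.71% of all genes called with age, by diet and in restricted against young mice. Ddr1, a receptor tyrosine kinase for collagen, rose with age by 0.43 ± 0.10 (limma adjusted p = 0.0392). Itga11, the integrin alpha chain that binds collagen I, was 1.49-fold lower in restricted than in young mice (-0.58 ± 0.15, 0.0324). Timp1, an inhibitor of the matrix metalloproteinases, had values of 5.51, 6.11 and 6.47 in young mice and 5.86, 7.15 and 8.86 in old mice, and a median of 5.53 in restricted mice. The old mice were spread the most, and the restricted mice, from 5.01 to 6.18, overlapped both other groups. Timp1 was detected on 7 of 10 young, 6 of 7 old and 2 of 7 restricted arrays, so most restricted values lay below the detection limit and carry little weight for the size of a difference. On the measured values it was lower under restriction (limma adjusted p = 0.0176), and its age difference did not pass (0.0694).

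None of the 11 tested genes among 12 fibril-associated proteoglycans and glycoproteins passed. With age 10 lay below 0 (median -0.28), against 45.8% of all genes. Of these, 4 had an unadjusted p under 0.05, against 8.36% of all genes lower at that p. By diet 1 of the 11 was lower at an unadjusted p under 0.05, against 12.5% of all genes, and in restricted against young mice 5 were, against 11.7%. Ogn, a small leucine-rich proteoglycan, differed by -0.42 ± 0.12 with age (limma adjusted p = 0.0666), Kera by -1.05 ± 0.33 (0.0964), and both passed without old mouse 3 (Ogn 0.0316, Kera 0.0411). Of 19 genes of TGF beta signalling and the hypoxia response 17 were tested, and the list was mixed. With age 11 lay above 0 and 6 below (median 0.07), and by diet 8 above and 9 below (median -0.01). Of the 17, 2 were called higher and 1 lower with age, 1 lower by diet and 1 lower in restricted against young mice. Over all genes 2.06% were called with age, 3.18% by diet and 4.71% in restricted against young mice. Egln3 and Ankrd37, targets of hypoxia-inducible factor, rose with age by 0.98 ± 0.16 (0.00515) and 0.59 ± 0.12 (0.0238), and Ankrd37 fell by 0.61 under restriction (SE 0.13, 0.0189). Smad3, which carries the TGF beta signal to the nucleus, fell with age by 0.45 (SE 0.11, 0.0404) and was lower in restricted than in young mice by a similar amount (-0.42 ± 0.11, 0.0381).

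Values of cell type markers are given beside these differences. Of 15 fibroblast markers 12 were tested, and 11 of the 12 lay below 0 with age (median -0.28), against 45.8% of all genes. Their mean per mouse, each gene centred over all mice, was 0.11 to 0.28 in young, -0.64 to 0.12 in old and -0.16 to 0.09 in restricted mice, with old mice 1 and 4 lowest. No fibroblast marker passed with age (6 lower at an unadjusted p under 0.05, against 8.36% of all genes). By diet none passed either (1 higher at that p, against 19.8% of all genes in either direction). Islr was lower in restricted than in young mice (-0.55 ± 0.15, limma adjusted p = 0.0451), as 1 of the 12, beside 2.68% of all genes called lower. It was detected on 20 of 24 arrays by at least 1 probe, so some of its values carry little weight. Of 11 tendon markers 6 were tested, with means of -0.02 to 0.47 in young, -0.88 to 0.80 in old and -0.71 to 0.31 in restricted mice. The tendon genes Scx, Fmod, Comp, Kera and Tppp3 were detected on 24 arrays and Chad on 23, whereas Tnmd, Mkx, Thbs4, Cilp2 and Cpxm2 were detected on none. Tppp3 fell by 0.64 under restriction (SE 0.15, limma adjusted p = 0.0306), as 1 of the 6, beside 2.26% of all genes called lower. Lum and Dcn of the fibroblast list and Fmod and Kera of the tendon list are also among the proteoglycans above.

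The mean of 11 tested endothelial markers was -0.05 to 0.19 in young, -0.25 to 0.39 in old and -0.21 to -0.01 in restricted mice. All 11 lay below 0 in restricted against young mice (median -0.20), against 51.7% of all genes. None of them passed (3 lower at an unadjusted p under 0.05, against 11.7% of all genes). The endothelial receptor gene Kdr was detected on no array. Schwann cell markers (4 tested), smooth muscle and pericyte markers (8 tested) and muscle fibre markers (9 tested) had medians within -0.15 and 0.10 in all 3 comparisons and none passed. Macrophage markers (11 tested) had a median of -0.28 by diet. Tyrobp fell by 0.72 (SE 0.19, limma adjusted p = 0.0421), as 1 of the 11, beside 2.26% of all genes called lower. It was detected on 18 of 24 arrays, so some of its values carry little weight for the size of the difference. Of 8 adipocyte markers 6 were tested, with a mean of -0.87 to 0.82 in young, -0.87 to 0.89 in old and -0.92 to 0.39 in restricted mice, and old mouse 6 was the lowest old mouse. Their median difference was 0.24 with age, -0.20 by diet and 0.02 in restricted against young mice, and none passed. At an unadjusted p under 0.05 there were 0 with age and 0 by diet, the latter against 19.8% of all genes. In restricted against young mice 1 was higher and 1 lower at that p, against 11.7% of all genes lower. The part of these cells in the differences of collagen genes was not tested.

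Between mice of the same group, 6 collagen genes varied with Col1a1, and none of the modifying genes passed that test. With the group means removed, each of the 29 other tested members and 8 marker means was correlated with Col1a1 over the 17 mice (37 relations, permutation within groups with 100000 resamples, two-sided, Benjamini-Hochberg over the 37). Of the 29 members 27 had r above 0, and 6 passed. The other genes tested were not correlated with Col1a1, so whether these counts are particular to collagen genes was not tested. Col6a1 followed Col1a1 most closely (r = 0.92, rho = 0.92, permutation p = 2e-05, adjusted p = 0.00074). Col6a2 (r = 0.84, rho = 0.85, adjusted permutation p = 0.0113) and Col1a2 (r = 0.78, rho = 0.76, 0.0173) came next. Without old mouse 1 and restricted mouse 4, the mice farthest from the median of Col1a1, r was 0.90 for Col6a1, 0.80 for Col6a2 and 0.78 for Col1a2.

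Col14a1 (r = 0.75), Col8a1 (r = 0.74) and Col4a2 (r = 0.72) also passed, and without those mice r was 0.63, 0.81 and 0.54. Col14a1 was detected on only 7 of 24 arrays, so its values lay near or below the detection limit and its r carries little weight. Col3a1 had r = 0.66 and did not pass (adjusted permutation p = 0.0693). Of the enzymes, P4ha1 (r = -0.12), P4ha2 (r = -0.39) and Plod3 (r = 0.03) did not pass. The mean of the fibroblast markers had r = 0.60 (adjusted permutation p = 0.120) and that of the tendon markers r = 0.59 (0.127). All values of a mouse come from the same RNA and arrays.

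**Figure D5:**
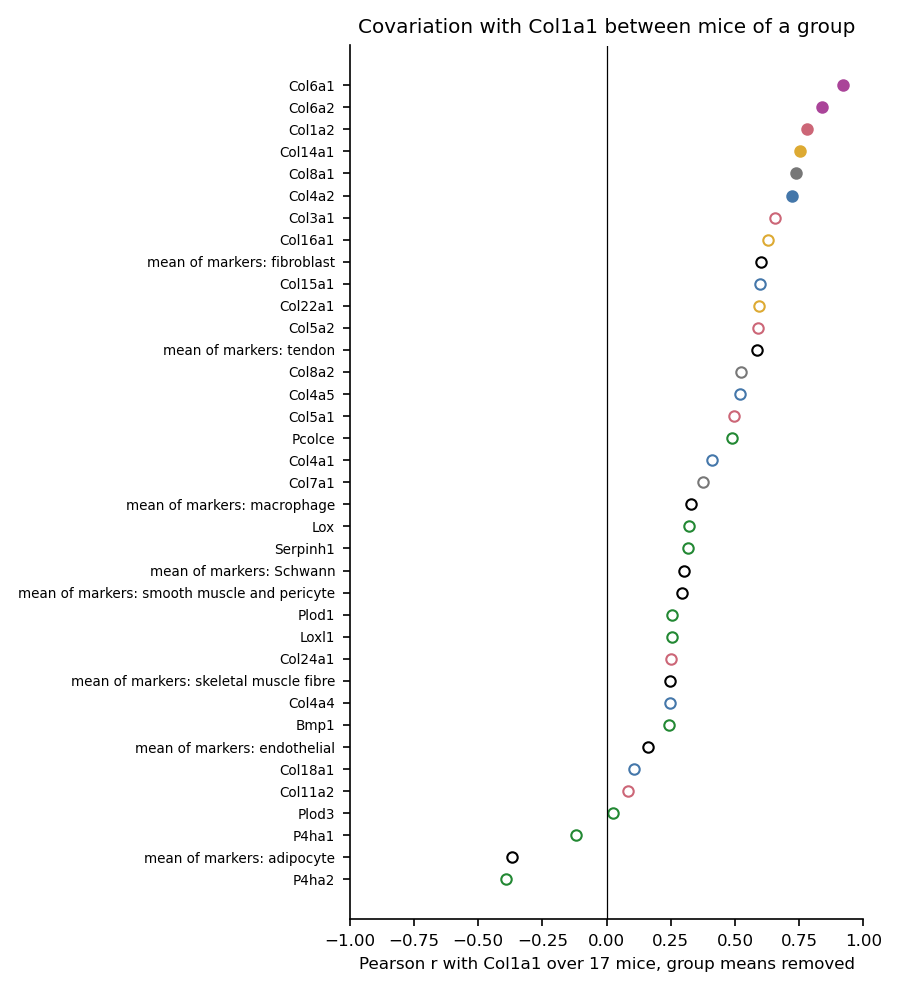
Pearson r with Col1a1 over 17 mice after removal of group means (x axis) for 29 tested members (coloured by class as in the plot of differences) and 8 marker means (black); filled points have an adjusted permutation p under 0.05. Col6a1 is highest at 0.92 and P4ha2 lowest at -0.39.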

How the data were processed

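Total RNA of gastrocnemius was hybridised to Illumina bead arrays. The authors deposited a table of unnormalized probe intensities with a detection p-value for each probe and array, per the file headers, and GenomeStudio is named in the submitters' processing notes. A second deposited table holds the authors' processed intensities, whose columns have medians of 98.6 to 98.7 on a linear scale; it was used only as an alternative, and how it was normalized is not given in the sources used here.

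From the unnormalized intensities, limma 3.58.1 in R 4.3.3 applied neqc (normexp background correction with negative controls inferred from the detection p-values, offset 16, quantile normalization, log2). Probes were named from GEO's platform annotation: 34885 have 1 symbol, 18 several and 10378 none listed. The filter kept probes with a detection p under 0.01 on 5 or more arrays, the 24 arrays were averaged per mouse to 17, and the highest-mean probe stood for a gene. Arrays whose labels carry the same name were counted as 1 mouse: their deviations from the array mean correlated at a median of 0.668 (10 pairs), against 0.0448 for different mice of a group (77 pairs). A 3-group limma fit with eBayes over 8943 genes gave differences, SEs and Benjamini-Hochberg adjusted p-values (two-sided, threshold 0.05). Replicate numbers name different mice and do not pair them: same-numbered mice of 2 groups correlated between -0.25 and 0.19. Full statistics were given for each member past the threshold, for the main collagen I, III, IV and VI genes and the modifying genes, and for the members of each class with the smallest p; of the other pathway lists, for genes past the threshold and some with the smallest p. The script was tested on simulated data with known changes. Alternatives were the background correction, the scaling, the authors' table, the detection filter, all arrays with the mouse as a random block, the chip or the replicate number as a block, the choice of probe, the variance model, array weights, 2 groups only and leaving out each mouse. The members and lists were chosen with earlier results of these data known.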

Additional observations from a re-analysis of the deposited data

Results flagged for a closer look

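In each group of 5 or 6 mice the highest and lowest value of each tested member except Col11a2 was set against the others by Dixon's test at its 95% critical value. Of 87 groups that could be tested, 4 held a value that stood apart, and chance alone gives about 5%. Restricted mouse 1 was far above the other 4 restricted mice in Col24a1 (6.68 against a next highest 5.99) and in Col8a2 (6.43 against 5.94). Both probes lie near the detection limit. Restricted mouse 4 was far below the others in Col7a1 (6.06 against a next lowest 6.53). Young mouse 1 had the highest Col4a2 of the young mice (10.72 against 10.48).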

How the results depend on the processing

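No called value changed its sign under any of the alternatives. Of the called members, Col4a1, Col4a2, Col18a1, P4ha2 and Loxl1 in restricted against young mice kept their calls under 13 of 13 settings and in 17 of 17 fits without 1 mouse. By diet P4ha1, P4ha2 and Plod3 missed the threshold without the detection filter (adjusted p of 0.0572, 0.0606 and 0.0583) and with 2 groups only (0.118, 0.116 and 0.130). Members called with age numbered 1, and 3 without background correction, with the authors' table, with the mean of the probes, with every probe as a row and with a trended robust spread, 0 with detection on 12 arrays (which drops Col4a4), 6 with the mouse as a random block, 5 with the chip as a block and 10 with array weights. Genes called with age numbered 184, and 95 without the detection filter, 284 with the mouse as a random block, 281 with the chip as a block, 286 with the mean of the probes and 482 with array weights. Members called by diet numbered 3, and 0 without the detection filter or with 2 groups only, where 24 genes were called in all in place of 284. In restricted against young mice 421 genes were called, 273 without the detection filter and 1147 with array weights. The cause of these shifts was not tested. With the replicate block the members called were 1 with age, 1 by diet (P4ha2) and 8 against young, and the genes 107, 88 and 244; its adjusted p by diet was 0.0547 for P4ha1, 0.0438 for P4ha2 and 0.0904 for Plod3. Leaving out 1 mouse in turn gave 1 to 8, 0 to 6 and 6 to 13 members in the 3 comparisons, and 32 to 262, 66 to 502 and 131 to 691 genes. Among member values that were not called, 10 changed sign under a setting and 33 without a mouse. Col4a4, Col5a2 and Col14a1 lay near the detection limit, where the signal over background limits what can be measured.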
